A study of Saccharomyces cerevisiae with 3 samples.

Results

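The large subunit of the yeast cytosolic ribosome is built from ribosomal RNA and a set of proteins encoded by nuclear genes named RPL, together with the stalk genes RPP0, RPP1A, RPP1B, RPP2A and RPP2B. These genes were chosen by symbol alone, and RPP1, which encodes an RNase P subunit, was not among them. The rule found 81 genes, 76 of them RPL genes and 5 stalk genes, among 6002 protein-coding genes of the budding yeast genome. The data are lists of DNase I hypersensitive sites, which are stretches of nuclear DNA that the nuclease cuts often and which mark open chromatin.

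There were 3 libraries, 1 per strain, all in the MATa strain BY4741 grown in rich YPD medium with 2% glucose at 30 °C. The first strain lacks SBA1 (labelled sba1-/-), which encodes the p23 co-chaperone of Hsp90. The second lacks GCN5 (labelled gcn5-/-), whose product acetylates histones as part of the SAGA coactivator. The third is the parental wild type. The study asked, by its title, how p23 and Gcn5 together shape open chromatin. With 1 library per strain no difference between strains has a replicate check, and the strains were not tested against each other; the counts below describe these 3 lists.

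Ribosomal protein genes are among the most heavily transcribed genes in growing yeast, and their output follows nutrient supply. As background, most of their promoters bind Rap1 together with Fhl1, Ifh1 and Sfp1, and many also bind the HMG box protein Hmo1, with few nucleosomes over the bound stretch. Many of the proteins are made from a pair of duplicated genes, A and B, that encode the same or nearly the same protein.

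The lists held 2439 sites in sba1-/- cells, 3062 in gcn5-/- cells and 3260 in wild type, with median nuclear widths of 350, 261 and 247 bp. Read depth is unknown, so a missing site cannot be read as closed chromatin. SBA1 had 1.84% of its coding span under sites in sba1-/- cells, 0% in gcn5-/- cells and 0% in wild type. GCN5 had 29.4% in sba1-/- cells, 0% in gcn5-/- cells and 0% in wild type. Coverage of the deleted genes therefore does not check the strain labels. Positions are on sacCer3, and distances are in bp from the first base of the start codon, negative upstream.

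Most large-subunit genes had a listed site in the 500 bp upstream of the start codon, here called the promoter window, in every strain. A site counted when it touched the window by at least 1 bp. It did so at 59 of 81 genes in sba1-/- cells (72.8%, exact binomial 95% interval 61.8 to 82.1), where all protein-coding genes stood at 38.7%. The count was 66 of 81 in gcn5-/- cells (81.5%, 71.3 to 89.2), against 43.9% of all genes. In wild type 55 of 81 had one (67.9%, 56.6 to 77.8), against 43.2% of all genes. The intervals cover counting over genes only, and genes are not replicates of a strain.

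The 56 small-subunit ribosomal protein genes, the set most like this one, had a promoter site at 62.5% in sba1-/- cells, 80.4% in gcn5-/- cells and 78.6% in wild type. The large-subunit genes were thus above their wild-type count in both deletion lists, by 4 and 11 genes. The difference between the subunits was not tested, and their intervals overlap in each list.

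**Figure D1:**
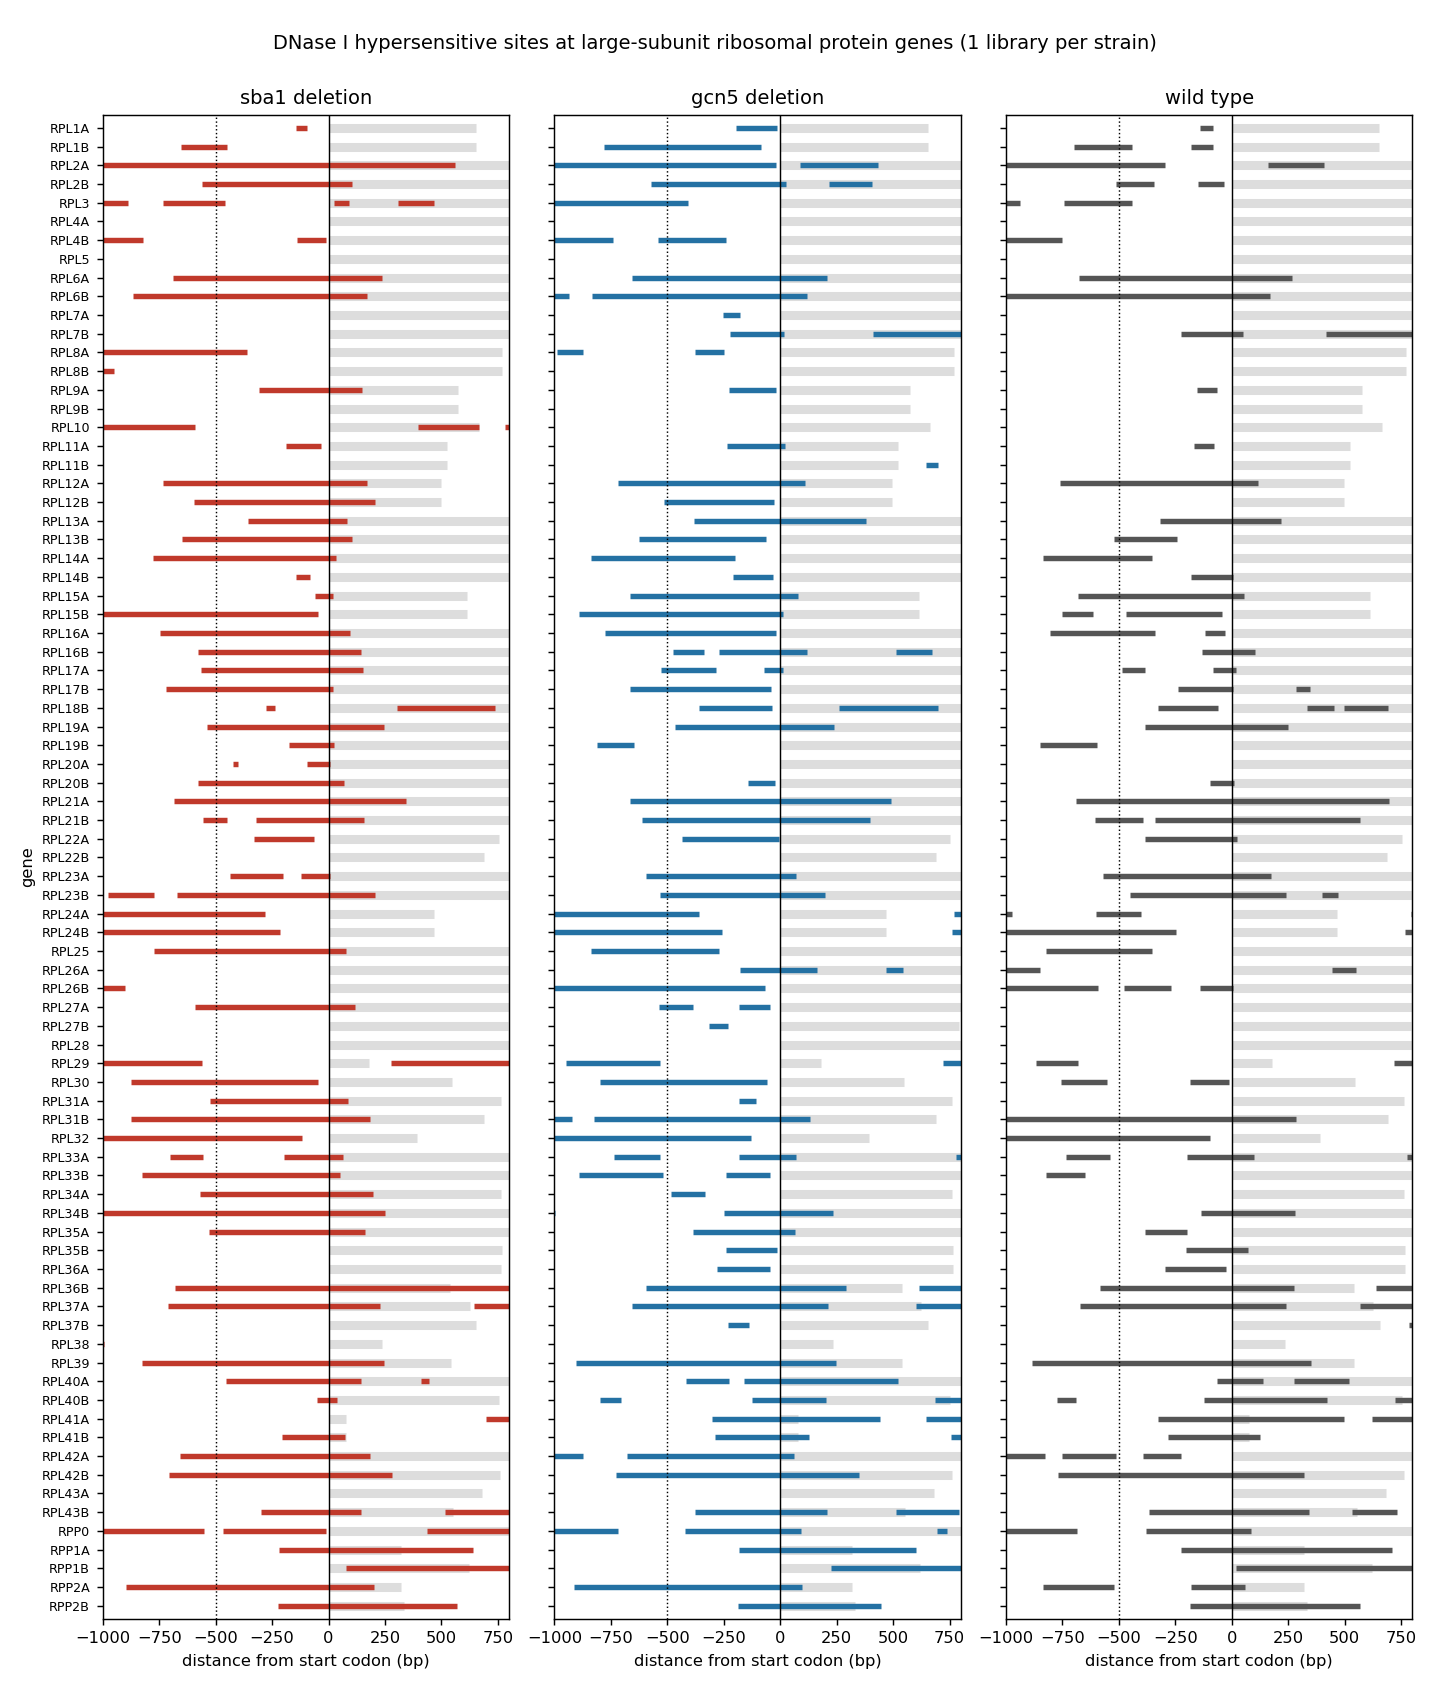
Listed sites (coloured bars) around the start codons of 80 of the 81 genes in sba1-/- cells, gcn5-/- cells and wild type; grey bars are coding spans, the solid line is the start codon and the dotted line the upstream end of the 500 bp window. Bars run unbroken from the dotted line to the start codon at 30 genes in sba1-/- cells, 17 in gcn5-/- cells and 11 in wild type.

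At 50 of 81 genes (61.7%, 50.3 to 72.3) a promoter site was present in all 3 lists, against 26.6% of all genes, and at 13 (16.0%, 8.83 to 25.9) in none, against 42.6% of all genes. A further 7 genes had one in both deletion lists and not in wild type, 5 in gcn5-/- cells and wild type, 4 in gcn5-/- cells only and 2 in sba1-/- cells only. No gene had its promoter site in wild type alone. The shares of all genes with these mixed patterns are not given here, so these counts cannot be set against a background.

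The highest-scored wild-type promoter sites lay at RPL2A, RPL32, RPL6B, RPL39 and RPL6A. The score is the authors' own and was used only to rank sites within a list. RPL2A (YFR031C-A, chromosome VI 220507 to 221418) encodes a protein close to the peptidyl transferase centre. Its site ran from -1742 to 561 in sba1-/- cells, from -1296 to -20 in gcn5-/- cells and from -1300 to -297 in wild type. It therefore crossed the start codon in sba1-/- cells alone, and it ranked above 94.9%, 96.7% and 97.1% of sites in those lists. In wild type 204 bp of it lay in the window, and it reached past the near end of the upstream gene RRT5, 671 bp from RPL2A. RPL32 (YBL092W, chromosome II 45978 to 46370) had a site from -1825 to -116, from -1140 to -129 and from -1138 to -95 in the same order of strains. That site kept its downstream edge within a narrow range while its upstream edge lay farther out in sba1-/- cells. RPL39, which encodes a small protein of the exit tunnel, had its whole window covered in all 3 lists, as did RPL6A and RPL6B.

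In total 9 genes had the window wholly covered in every list: RPL6A, RPL6B, RPL12A, RPL21A, RPL31B, RPL36B, RPL37A, RPL39 and RPL42B. The share of all genes with this pattern is not given here, so the count has no background. RPL12A encodes a protein at the base of the stalk. At RPL37A the edges hardly moved, with sites from -710 to 227 in sba1-/- cells, -657 to 213 in gcn5-/- cells and -671 to 241 in wild type.

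The 13 genes without a promoter site in any list included RPL4A, RPL5, RPL8B, RPL9B, RPL10, RPL11B, RPL22B, RPL28, RPL29, RPL38, RPL43A and RPP1B. Among them are RPL5 and RPL11B, whose proteins hold the 5S ribosomal RNA, and RPL10, whose protein joins the subunit late in its assembly. Most had no site in their coding span either. RPL10 (YLR075W, chromosome XII 282927 to 283592) is an exception in sba1-/- cells, where a site at chromosome XII 283323 to 283592 covered 40.5% of it, against 0% in gcn5-/- cells and 0% in wild type. That site ranked above only 17.0% of its list.

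RPP1B (YDL130W, chromosome IV 229906 to 230527), which encodes an acidic P1 protein of the stalk, is another exception. It carried a strong site that began downstream of the start codon in all 3 lists. The site ran from 76 to 1276 in sba1-/- cells, from 226 to 1098 in gcn5-/- cells and from 18 to 1005 in wild type, past the stop codon each time. It covered 87.8%, 63.7% and 97.1% of the coding span. RPP1B was the only gene in each list with at least 50% of its span covered and no promoter site.

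Of the 55 genes with a wild-type promoter site, the sba1 deletion lacked it at 5 (9.09%, 3.02 to 20.0), against 36.5% over all genes with such a site. The gcn5 deletion lacked it at 0 of 55, a share with an exact upper limit of 6.49%, against 14.0% over all genes. The same shares at small-subunit genes were 27.3% (15.0 to 42.8) in sba1-/- cells and 9.09% (2.53 to 21.7) in gcn5-/- cells. All 5 absences in sba1-/- cells were therefore at genes whose site the gcn5 deletion kept.

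These 5 genes were RPL7B, RPL26B, RPL35B, RPL36A and RPL41A, and each belongs to an A and B pair. No sba1 deletion site overlapped the wild-type site at any of them. At RPL7B (YPL198W, chromosome XVI 173152 to 174702) the wild-type site lay at chromosome XVI 172927 to 173203, ranked above 68.2% of its list, and the nearest sba1 deletion site was 7072 bp away. Both values were the highest of the 5. The wild-type sites at RPL36A, RPL41A, RPL26B (its wider site) and RPL35B ranked above 60.8%, 57.6%, 32.4% and 31.4%. The nearest sba1 deletion site lay 1593, 201, 426 and 1200 bp away in that order of genes. RPL7B had 0, 221 and 225 bp of the window covered in sba1-/- cells, gcn5-/- cells and wild type. RPL36A had 0, 232 and 271 bp covered in that order of strains, and RPL35B had 0, 226 and 204 bp. RPL26B, a gene for a protein near the tunnel exit, had 0, 434 and 348 bp.

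RPL41A (YDL184C, chromosome IV 130407 to 130484) encodes one of the smallest yeast proteins, so that a site can span the whole gene. Its site ran from -301 to 443 in gcn5-/- cells and from -325 to 495 in wild type, and the nearest sba1 deletion site was 201 bp from the wild-type one. Its coding span was covered at 0% in sba1-/- cells, 100% in gcn5-/- cells and 100% in wild type. The B copy, RPL41B, was covered at 93.6%, 100% and 100%.

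Promoter sites absent from wild type were listed at 9 of 26 genes in sba1-/- cells (34.6%, 17.2 to 55.7), against 19.7% over all genes without a wild-type site. They were listed at 11 of 26 in gcn5-/- cells (42.3%, 23.4 to 63.1), against 11.9% over all genes. Both deletion lists had one at RPL4B, RPL8A, RPL12B, RPL27A, RPL31A, RPL33B and RPL34A. At RPL4B the sites of the strains did not overlap, lying from -140 to -11 in sba1-/- cells and from -543 to -239 in gcn5-/- cells. Only the sba1 deletion had one at RPL19B and RPL20A, and only the gcn5 deletion at RPL7A, RPL26A, RPL27B and RPL37B. The sba1 deletion site at RPL8A met the window only over coding sequence of the upstream gene. Both strains are set against 1 wild-type list, and a site missing from it by error counts for each of them.

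The added sites differed in form between the strains. In sba1-/- cells they had a median width of 708 bp, from 103 to 2049, and 5 of 9 belonged to windows that were wholly covered. Their scores ranked at a median of 57.5% of the list. In gcn5-/- cells they had a median width of 140 bp, from 75 to 491, covered no window wholly and ranked at a median of 17.6%. Most of the gcn5 deletion additions thus lay near the lower end of that list.

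RPL12B (YDR418W, chromosome IV 1301616 to 1302113) had the widest of the sites added in gcn5-/- cells. Its site lay at chromosome IV 1301019 to 1301823 in sba1-/- cells, from -597 to 207, and ranked above 77.3% of sites. In gcn5-/- cells it lay from -516 to -26 and ranked above 17.6%, and wild type had none in the window. RPL31A had a site from -526 to 84 in sba1-/- cells, one of 75 bp from -183 to -109 in gcn5-/- cells, and none in the wild-type window. RPL34A had 500, 152 and 0 bp of its window covered in sba1-/- cells, gcn5-/- cells and wild type. At RPL8A the sba1 deletion site, 2049 bp wide, reached 142 bp into the window from upstream, against 127 bp in gcn5-/- cells and 0 bp in wild type. The coding span of the upstream gene GUT1 lies 353 bp from RPL8A, so the 142 bp in sba1-/- cells lay within GUT1. With other coding sequence left out of the windows, 58 genes had a promoter site in sba1-/- cells, 8 of them without one in wild type.

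Where sites were present, they covered more of the promoter window in the deletion lists. Genes with a site had a median of 500 bp covered in sba1-/- cells, 360.5 bp in gcn5-/- cells and 256 bp in wild type. Over all genes with a site the medians were 333.5, 264 and 245 bp in that order of strains. At small-subunit genes they were 500, 314 and 227.5 bp. The whole window was covered at 30 of 81 genes in sba1-/- cells (37.0%, 26.6 to 48.5), against 12.4% of all genes. It was covered at 17 (21.0%, 12.7 to 31.5) in gcn5-/- cells, against 7.28% of all genes. In wild type it was covered at 11 (13.6%, 6.98 to 23.0), against 5.83% of all genes. At small-subunit genes the shares were 33.9% in sba1-/- cells, 23.2% in gcn5-/- cells and 17.9% in wild type. Sites wider than 1 kb made up 18.9% of the sba1-/- list, 8.03% of the gcn5-/- list and 7.09% of the wild-type list, and the part of this in the count of whole windows was not tested.

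Windows whole in sba1-/- cells and not in wild type numbered 21, of which 16 were partly covered in wild type and 5 had no wild-type site; over all genes 7.61% did so. The reverse held at 2 genes, RPL15A and RPL23A, and at 1.03% of all genes. RPL15A had 58 bp of the window covered in sba1-/- cells, 500 bp in gcn5-/- cells and 500 bp in wild type, and RPL23A had 358, 500 and 500 bp. Windows whole in gcn5-/- cells and not in wild type numbered 6, against 2.15% of all genes, namely RPL2B, RPL15B, RPL21B, RPL23B, RPL42A and RPP2A. The reverse held at 0 genes, against 0.700% of all genes.

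RPL25 encodes a protein at the tunnel exit, where the nascent chain leaves the ribosome. Its window was covered for 500 bp in sba1-/- cells, 230 bp in gcn5-/- cells and 147 bp in wild type. The site ended at 77 in sba1-/- cells, at -271 in gcn5-/- cells and at -354 in wild type, so that the downstream part of the window was under a site in sba1-/- cells alone. RPL16A, RPL17A and RPL17B also had the whole window covered in sba1-/- cells, with 248, 186 and 237 bp in wild type.

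Counting a difference of at least 100 bp of window, coverage in sba1-/- cells was greater than in wild type at 28 of 81 genes, where 16.2% of all genes were, and smaller at 11, where 17.0% of all genes were. It was greater at 25 in gcn5-/- cells, against 9.96% of all genes, and smaller at 0, against 6.01% of all genes. The mean difference from wild type was 74.7 bp in sba1-/- cells and 79.3 bp in gcn5-/- cells, where all genes averaged 9.43 and 8.96 bp. The median difference over the 81 genes was 0 bp in sba1-/- cells and 34 bp in gcn5-/- cells.

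At the 50 genes with a site in all 3 lists, the median width of the main promoter site was 770.5 bp in sba1-/- cells, 699.5 bp in gcn5-/- cells and 466 bp in wild type. The sba1 deletion site was the wider one at 29 genes and the narrower at 21, against 59.6% and 40.3% of all genes with a site in the 3 lists. The median ratio to wild type was 1.14 at these 50 genes and 1.14 over all such genes. The gcn5 deletion site was wider at 33 and narrower at 17, against 54.5% and 45.5% of all such genes, with median ratios of 1.11 and 1.02. Upstream edges had medians of -652.5, -602.5 and -388.5, and downstream edges 105, 68.5 and 58. The medians of the edges thus lay farther apart upstream than downstream. Gene by gene, the upstream edge lay farther out than in wild type at 29 of 50 genes in sba1-/- cells and 35 in gcn5-/- cells. The downstream edge lay farther downstream at only 21 and 24 of them, although its medians were higher. These edge counts are not given over all genes.

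**Figure D2:**
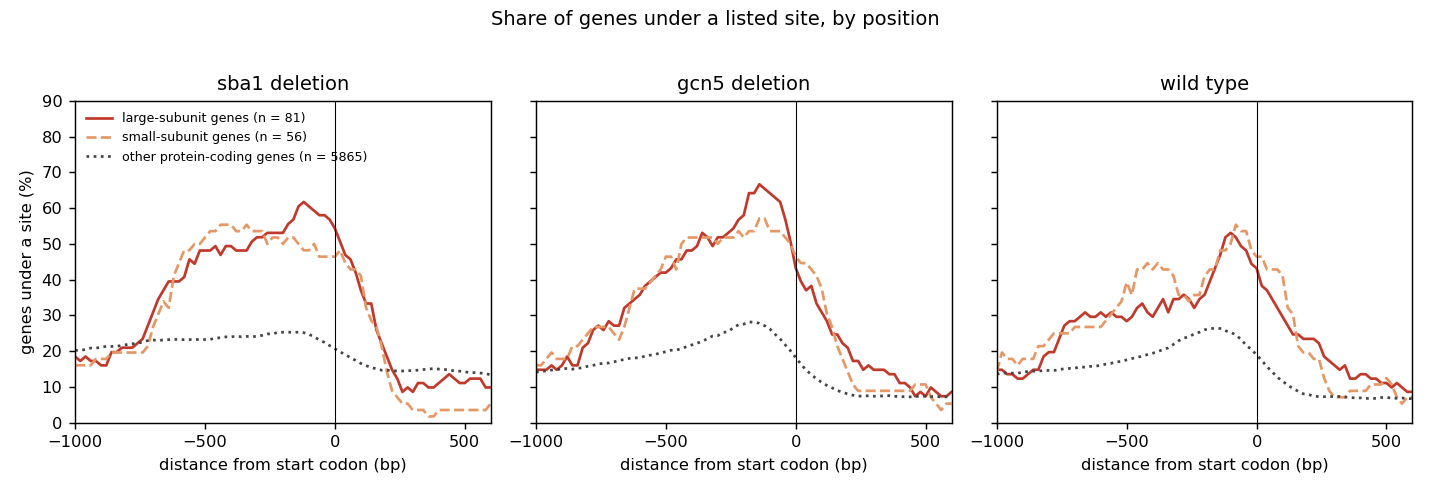
Percentage of genes under a listed site at each position from -1000 to 600 bp around the start codon, in steps of 20 bp, for sba1-/- cells, gcn5-/- cells and wild type; positions past the end of a short gene are included. The line of the large-subunit genes peaks at 61.7% in sba1-/- cells, 66.7% in gcn5-/- cells and 53.1% in wild type.

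Read by position, the share of large-subunit genes under a site was highest close to the start codon in every strain. The peak was 61.7% at -120 in sba1-/- cells, 66.7% at -140 in gcn5-/- cells and 53.1% at -100 in wild type. The strains stood farther apart upstream: at -300 the shares were 51.9%, 51.9% and 34.6%, and at -500 they were 48.1%, 42.0% and 28.4%. At -1000 they were 18.5%, 14.8% and 14.8%. Small-subunit genes had a like pattern at -300, with 53.6% in sba1-/- cells, 50.0% in gcn5-/- cells and 35.7% in wild type, while genes of neither subunit stood at 24.1%, 24.4% and 22.9%.

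Downstream of the start codon the order of the strains changed with distance. At 100 the share was 37.0% in sba1-/- cells, 30.9% in gcn5-/- cells and 29.6% in wild type, where genes of neither subunit stood at 16.6%, 11.3% and 11.7%. At 200 it was 18.5%, 21.0% and 23.5% in that order of strains. At 400 the share was 11.1% in sba1-/- cells, 11.1% in gcn5-/- cells and 13.6% in wild type. Among the 5865 genes that belong to neither subunit it was 15.0%, 7.31% and 6.96% at the same position, and among the small-subunit genes 3.57%, 8.93% and 8.93%. The difference between the gene sets was not tested.

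Coverage of the coding span, taken from start to stop codon with introns counted, had nearly the same mean in the 3 lists. It was 17.9% in sba1-/- cells, 17.2% in gcn5-/- cells and 18.2% in wild type over the 81 genes, with medians of 7.30%, 0% and 0%. Over all 6002 genes the means were 13.7%, 8.24% and 8.08%. A site reaching a given distance past the start codon covers a larger share of a shorter span. Gene length was not matched between the sets compared. At least 50% of the span was covered at 8 of 81 genes in sba1-/- cells (12.0% of all genes), at 8 in gcn5-/- cells (6.05% of all genes) and at 11 in wild type (5.46% of all genes). Copies of a duplicated gene share long identical stretches there, and the sources used here do not say how reads matching both were treated.

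Single genes differed in both directions. Coverage in sba1-/- cells was at least 10 percentage points above wild type at 18 genes, against 17.3% of all genes, and at least 10 points below at 16, against 8.05% of all genes. In gcn5-/- cells the counts were 9 above, against 5.01% of all genes, and 10 below, against 4.70% of all genes. The first of these shares lies near its background.

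**Figure D3:**
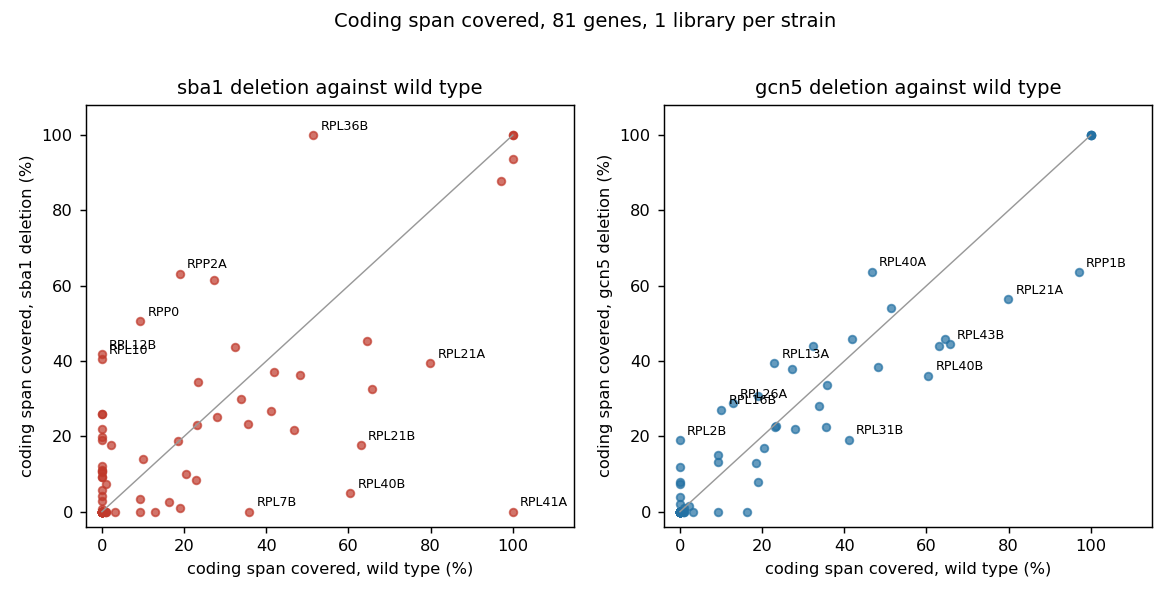
Percentage of the coding span under sites in sba1-/- cells (left) and gcn5-/- cells (right), each plotted against wild type, with 1 point per gene and the line of equal values; the 5 largest differences in each direction are named. RPL36B lies at 100% in sba1-/- cells and 51.4% in wild type, and RPL41A at 0% and 100%.

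The largest excess over wild type in sba1-/- cells was at RPL36B (YPL249C-A, chromosome XVI 75699 to 76239), with 100%, 54.0% and 51.4% covered in sba1-/- cells, gcn5-/- cells and wild type. A single sba1 deletion site of 2635 bp, at chromosome XVI 74287 to 76921, ran over the whole gene and beyond it. RPP2A had 63.2%, 30.8% and 19.0% covered in that order of strains, and RPP0 had 50.6%, 15.0% and 9.37%. Both encode stalk proteins, RPP0 the base to which the P1 and P2 proteins bind. RPL12B had 41.8%, 0% and 0%, and RPL10, described above, completed the 5.

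The largest deficits in sba1-/- cells were at RPL41A, RPL40B, RPL21B, RPL21A and RPL7B. RPL40B, which encodes a ribosomal protein made as a fusion with ubiquitin, had 4.90% covered in sba1-/- cells, 36.2% in gcn5-/- cells and 60.4% in wild type. RPL21A had 39.4%, 56.5% and 79.9%, and RPL21B had 17.7%, 43.9% and 62.9%, so both copies showed the same order of strains. RPL7B had 0%, 33.6% and 35.8%.

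In gcn5-/- cells the largest excesses were at RPL2B (19.0% against 0% in wild type), RPL40A (63.7% against 46.7%), RPL16B (27.1% against 10.0%), RPL13A (39.5% against 22.9%) and RPL26A (28.8% against 12.9%). The largest deficits were at RPP1B, RPL40B, RPL21A, RPL31B and RPL43B. RPL31B had 19.1% covered in gcn5-/- cells and 41.1% in wild type, and RPL43B had 44.4% and 65.7%. All of these genes except RPP1B and RPL26A had a wild-type promoter site.

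Most genes with coding coverage had a site that crossed the start codon. Covered bases were not divided between such sites and others. Any coding base was covered at 49 genes in sba1-/- cells (32.2% of all genes), 40 in gcn5-/- cells (31.5% of all genes) and 40 in wild type (33.6% of all genes). A site that crossed the start codon was present at 44, 35 and 35 of these, and in each list 5 genes were covered only by a site that began farther downstream. The split by start codon was not counted over all genes, so it cannot be read as particular to these genes.

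Within the stalk, 4 of 5 genes had a promoter site in every list, with RPP1B the exception. RPP1A and RPP2B, which encode a P1 and a P2 protein, had 100% of the coding span covered in all 3 lists. RPP1A had 219, 182 and 224 bp of window covered in sba1-/- cells, gcn5-/- cells and wild type, and RPP2B had 222, 185 and 187 bp. RPP2A had 500, 500 and 179 bp. RPP0 had 457, 423 and 378 bp.

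The other single-copy genes were uneven. Of the 11 members without an A or B partner, RPP0 included, 6 had a promoter site in each list. RPL3, whose protein reaches towards the peptidyl transferase centre, had 42 bp of window covered in sba1-/- cells, 95 bp in gcn5-/- cells and 61 bp in wild type, all at the far upstream end. RPL5, RPL10, RPL28, RPL29 and RPL38 had none in any list, and RPL25, RPL30, RPL32, RPL39 and RPP0 were the others with one.

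The remaining 70 genes form 35 pairs of A and B copies. Both copies had a promoter site in 20 pairs in sba1-/- cells, 25 in gcn5-/- cells and 17 in wild type. A site was listed in 1 copy only in 13, 10 and 15 pairs, and in neither in 2, 0 and 3. The letter made little difference to the number of copies with a site, at 28 A and 25 B copies in sba1-/- cells, 31 and 29 in gcn5-/- cells, and 25 and 24 in wild type.

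**Figure D4:**
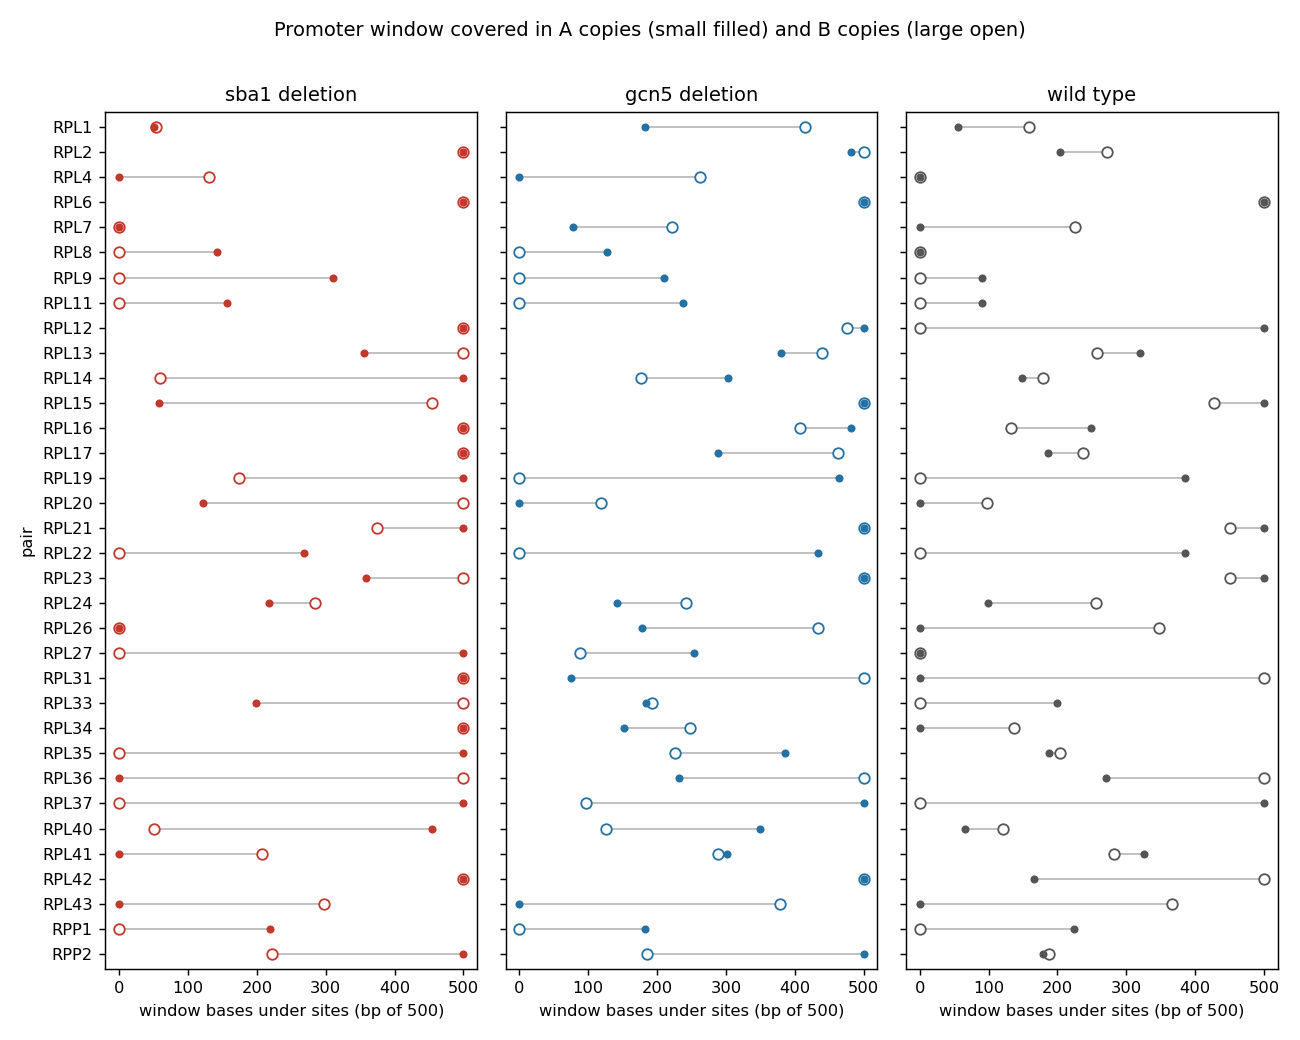
Bases of the 500 bp promoter window under sites in the A copy (small filled circle) and the B copy (large open circle) of 34 of the 35 pairs, in sba1-/- cells, gcn5-/- cells and wild type. At RPL37 the A copy stands at 500 bp in all 3 lists while the B copy stands at 0, 97 and 0 bp.

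In 20 of 35 pairs the state was the same in all 3 lists, with 14 of them having both copies covered. In the other 6 the same copy alone had a site throughout, among them the A copy at RPL9, RPL11, RPL22 and RPP1, and the B copy at RPL43. RPL43B had 298, 378 and 367 bp of window covered in sba1-/- cells, gcn5-/- cells and wild type, against 0, 0 and 0 bp at RPL43A. RPL22A had 268, 433 and 385 bp, against 0, 0 and 0 bp at RPL22B. No pair exchanged one covered copy for the other between wild type and a deletion.

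Of the 15 pairs with 1 covered copy in wild type, 6 had both covered in sba1-/- cells and 7 in gcn5-/- cells. At RPL12, RPL31, RPL33 and RPL34 both deletion lists had the second copy. At RPL19 and RPL20 only the sba1 deletion had it. At RPL7, RPL26 and RPL37 only the gcn5 deletion had it, and at RPL7 and RPL26 the sba1 deletion listed neither copy.

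Of the 17 pairs with both copies covered in wild type, 3 had 1 copy only in sba1-/- cells, namely RPL35, RPL36 and RPL41. RPL36A had 0 bp and RPL36B 500 bp covered there, so that partner genes for the same protein stood at opposite ends of the scale. RPL4, RPL8 and RPL27 had neither copy covered in wild type. The deletion lists added RPL4B and RPL8A in both strains, RPL27A in both and RPL27B in gcn5-/- cells. For RPL8A in sba1-/- cells this rests on a site over coding sequence of GUT1.

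The amount of window covered also differed within pairs. The median absolute difference between copies was 144 bp in sba1-/- cells, 159 bp in gcn5-/- cells and 98 bp in wild type. The A copy had more covered in 13, 15 and 14 pairs and the B copy in 12, 15 and 17. Mean coding coverage was 16.5% for A and 20.3% for B copies in sba1-/- cells, 18.1% and 19.9% in gcn5-/- cells, and 16.8% and 23.3% in wild type.

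Some promoters were shared with other genes. The upstream neighbour was divergent at 43 genes and tandem at 38, and 37 had a promoter site that also touched the window of a gene on the other strand in at least 1 list. The whole window was covered at 14 divergent and 16 tandem genes in sba1-/- cells, 8 and 9 in gcn5-/- cells, and 5 and 6 in wild type. The greater count in sba1-/- cells was thus present in both arrangements.

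RPL24A and RPL30 are divergent neighbours 1156 bp apart, the only members that face each other. RPL30 encodes a protein known to regulate splicing of its own transcript. A single site lay between them in the deletion lists, at chromosome VII 438217 to 439046 in sba1-/- cells and 438293 to 439033 in gcn5-/- cells. Wild type had separate sites there, at 438336 to 438537 and at 438908 to 439079. RPL30 had 456, 443 and 172 bp of window covered in sba1-/- cells, gcn5-/- cells and wild type, and RPL24A had 218, 142 and 99 bp.

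Of 14 genes listed as ribosomal protein gene regulators, 4 had a promoter site in sba1-/- cells, 3 in gcn5-/- cells and 5 in wild type. The shares of all genes were 38.7%, 43.9% and 43.2%. RAP1, IFH1, ABF1, TBF1 and CBF1, among others, had no promoter site in any list. The 14 include repressors that act through the PAC and RRPE promoter elements. DOT6, among these repressors, had 500 bp of window covered in every list. HMO1 had 500, 0 and 0 bp of window covered in sba1-/- cells, gcn5-/- cells and wild type, and 25.4%, 0% and 0% of its coding span. FHL1 had 0, 0 and 61 bp, and SFP1 had 175, 155 and 212 bp. Of 7 chaperones dedicated to ribosomal proteins, 1, 2 and 2 had a promoter site, beside the same shares of all genes; lists this short allow no comparison with them. SQT1, the chaperone of Rpl10, had 500, 0 and 0 bp of window covered and 58.1%, 0% and 0% of its coding span.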

How the data were processed

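DNase-seq lists from 3 yeast libraries were used, grouped by the genotype in the labels. Each list was deposited by the authors, 1 per sample, as positions with a score that they computed; the sources used here name neither its scale nor the peak caller, threshold or read depth. Per the submitters' processing notes, Bowtie 0.12.7 and the sacCer3 build were used. Scores served for ranking and filtering inside 1 list.

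Gene positions came from the RefSeq table for R64, the assembly behind sacCer3; it held 6477 genes, and 6002 protein-coding genes whose systematic name gives the strand were used. It holds no exons, so coding coverage includes introns; promoter sequences and motifs were not analysed here. The window was 500 bp, overlap at least 1 bp, and the main promoter site of a gene is the one with the longest stretch in the window.

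Shares have exact Clopper-Pearson 95% intervals, for counting error only. Differences of 10 points or 100 bp were counted. The counting code was tested on simulated data. Alternatives changed the window, overlap rule and site list; the count of wholly covered windows and its alternatives were chosen after seeing the data. Genes named are those without a site, those whose promoter state differed from wild type, the 5 highest-scored, the 5 largest coverage differences each way, differing pairs, single-copy genes and stalk genes; other genes named were chosen after their values were seen. Members and lists were chosen with earlier results of these data known. Software: scipy 1.17.1, pandas 2.3.3, matplotlib 3.10.9 and numpy 2.4.6 under Python 3.11.15. Results for 1 gene are not reported here, and it is not drawn by name.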

Additional observations from a re-analysis of the deposited data

Results flagged for a closer look

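Opposite differences from wild type in the deletion strains, of at least 10 percentage points of coding span or 100 bp of promoter window, were found at 4 genes. The share of all genes with such opposite differences is not given here, so the count cannot be set against a background. No test of these differences was possible with single libraries. For coding coverage at RPL13A the difference from wild type was -14.5 points in sba1-/- cells, against 16.6 points in gcn5-/- cells. At RPL40A it was -24.8 points in sba1-/- cells, against 17.1 points in gcn5-/- cells. At RPL26A it was -12.9 points in sba1-/- cells, against 15.9 points in gcn5-/- cells. The promoter window of RPL1B was covered for 53 bp in sba1-/- cells, 415 bp in gcn5-/- cells and 158 bp in wild type, differences of -105 and 257 bp.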

How the results depend on the processing

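Of 157 values over 20 results, 127 stayed within 1.5 times the reported value (coding means: within its binomial interval; counts over 44 genes: compared as shares of those genes), 28 did not and 2 changed sign. The cause was not tested. A coding mean is not a count, so its binomial interval served only as a fixed range and does not measure its spread. No paired analysis was possible because each strain has 1 library. The excess of genes with a promoter site over wild type kept its sign throughout. In gcn5-/- cells it was 6 to 13 genes. In sba1-/- cells it was 9 with the better-scored 50% of each list, 10 with equal numbers of best-scored sites, 1 with sites set to 250 bp and 1 among the 44 genes sharing no site across strands.

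With the better-scored 50%, wild type had 36 genes with a promoter site, the sba1 deletion lacked 9 and added 18, the gcn5 deletion lacked 1, and 16 gcn5 deletion pairs had 1 copy covered. With equal numbers the sba1 deletion added 15. With at least 100 bp required it lacked 10 and added 14. With midpoints in the window the gcn5 deletion lacked 2 and had 16 such pairs, and with a 250 bp window it lacked 1. With sites set to 250 bp the sba1 deletion lacked 9 and the gcn5 deletion 3, and mean coding coverage was 6.09% in sba1-/- cells, 8.40% in gcn5-/- cells and 10.2% in wild type, differences of -4.16 and -1.85 points. The coding difference of the sba1 deletion, -0.28 points, was -0.18 with the better-scored 50%, -0.50 with merged sites, 0.34 with equal numbers and 0.67 without shared sites, so its sign is not settled. Whole windows numbered 2, 0 and 2 at 1000 bp, and 35, 25 and 20 at 250 bp. The planned comparison of coding coverage with and without introns was not run, since the gene table used here lists no exons.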

Other observations

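Some A and B copies have duplicated genes as upstream neighbours too, a comparison chosen after the neighbours had been seen. RPL13A faces RPS16B and RPL13B faces RPS16A, genes of the small subunit. RPL13A had 356 bp of promoter window covered in sba1-/- cells, 380 bp in gcn5-/- cells and 320 bp in wild type, and RPL13B had 500, 439 and 257 bp. RPL40A faces MLP2 and RPL40B faces MLP1. RPL40A had 455, 349 and 66 bp covered in the same order of strains, and RPL40B had 50, 125 and 121 bp. RPL35A lies downstream of ARF1 and RPL35B of ARF2, in tandem. RPL35A had 500, 385 and 187 bp covered, and RPL35B had 0, 226 and 204 bp. RPL39 and RPP2A also face a small-subunit gene, RPS22A and RPS15, and both had 500 bp covered in sba1-/- cells and 500 bp in gcn5-/- cells, with 500 bp at RPL39 and 179 bp at RPP2A in wild type.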
